A study of Mus musculus with 6 samples.

Results

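The accessible neighbourhood of Sirt7 on mouse chromosome 11 was examined in spermatogonia-enriched samples of Sirt7-/- mice (S7KO) and wild-type mice (WT). Peaks of 6 ATAC-seq libraries were merged where they overlapped or touched, and the merged regions within 1 Mb of Sirt7 (mm10 chr11:120618371-120625014, minus strand) were kept. This gave 267 of 158725 regions, out of 9687 on chromosome 11. On the 3′ side of the gene the last region inside the limit lay 999 kb away and the next one 1014 kb away, and on the 5′ side these distances were 993 and 1005 kb. Because Sirt7 is read from the minus strand, its 3′ side is the side of lower coordinates.

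In both groups the samples were taken at postnatal day 5 (Pnd 5) from mice of the 129S1/Sv strain, with 50000 cells per sample and 3 libraries per genotype (replicates 1, 2 and 4 of each). The knockout is constitutive, so Sirt7 was missing from all cells of the animal and not from germ cells alone. Spermatogonia were enriched by differential plating, which leaves some somatic cells behind. The 5′ ends of 10 of 10 germ cell marker genes lay in a peak in all 6 libraries, but so did those of 5 of 5 Sertoli, 2 of 5 Leydig and 3 of 3 peritubular marker genes, so that an open promoter did not set the cell types apart. The lists hold no read depth. The genome-wide background coverage recovered from them ran from 4.72 to 6.03 in S7KO and from 2.92 to 6.001 in WT, and WT replicate 2 was the shallowest library.

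ATAC-seq uses the Tn5 transposase to cut chromatin where nucleosomes leave the DNA exposed, so promoters of active genes and regulatory elements gather fragments. SIRT7 is a NAD-dependent deacetylase of the sirtuin family that acts, among other targets, on acetylated lysine 36 of histone H3, a mark of open chromatin. Sirt7 sits in a gene-dense part of the chromosome end, between Pcyt2, which encodes an enzyme of phosphatidylethanolamine synthesis, and Mafg, which encodes a small Maf transcription factor. By the RefSeq gene table only 423 bases separated it from Pcyt2 and 102 bases from Mafg, so that peaks at either end of Sirt7 also belong to a neighbour.

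The bases just before the 5′ ends of 4 genes are shown because the results turn on their promoters. Sirt7 is the targeted gene and its stretch is the whole gap up to Mafg. P4hb and Arhgdia lie on the 3′ side, where the ranks of both promoters were separated between the genotypes, and Pycr1 lies on the 5′ side, where its ranks overlapped. All are RefSeq sequences of GRCm38.p6 on the minus strand, read 5′ to 3′ and ending at the base before the annotated 5′ end. Capitals mark matches, on either strand, to the motif GGGCGG of Sp1-type factors, the motif CCAAT of NF-Y, the core motif CCGGAAG of ETS factors or the motif TATAAA of TBP.
Sirt7, chr11:120625015-120625116: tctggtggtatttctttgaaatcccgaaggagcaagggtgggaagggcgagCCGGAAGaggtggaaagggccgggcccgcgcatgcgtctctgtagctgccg
P4hb, chr11:120573254-120573503: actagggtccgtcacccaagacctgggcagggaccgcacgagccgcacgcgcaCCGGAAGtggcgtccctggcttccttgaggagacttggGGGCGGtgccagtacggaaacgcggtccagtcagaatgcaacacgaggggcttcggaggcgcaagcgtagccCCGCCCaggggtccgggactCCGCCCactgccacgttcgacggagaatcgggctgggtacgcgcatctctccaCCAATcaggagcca
Arhgdia, chr11:120581625-120581874: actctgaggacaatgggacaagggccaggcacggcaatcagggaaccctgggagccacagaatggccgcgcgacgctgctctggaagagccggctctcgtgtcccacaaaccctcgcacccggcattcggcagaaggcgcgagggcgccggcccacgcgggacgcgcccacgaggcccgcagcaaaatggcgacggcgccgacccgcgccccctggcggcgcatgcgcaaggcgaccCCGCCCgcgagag
Pycr1, chr11:120643749-120643998: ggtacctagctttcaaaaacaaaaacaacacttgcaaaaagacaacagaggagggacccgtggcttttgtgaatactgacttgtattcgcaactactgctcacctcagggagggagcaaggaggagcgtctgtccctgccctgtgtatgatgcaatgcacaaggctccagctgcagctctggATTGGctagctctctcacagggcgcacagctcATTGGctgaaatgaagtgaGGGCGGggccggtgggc
The Sirt7 gap held 1 ETS motif, 51 to 45 bases before the 5′ end, letters found in 4.57% of all 32851 promoter entries over the same length. P4hb held 3 Sp1-type motifs, 1 NF-Y motif and 1 ETS motif, Arhgdia 1 Sp1-type motif, and Pycr1 1 Sp1-type motif and 2 NF-Y motifs. Over 250 bases, 32.7% of all entries held the Sp1-type motif, 33.8% the NF-Y motif, 6.91% the ETS motif and 12.4% the TBP motif, and none of the 4 stretches held the last. Matches did not overlap each other in the stretches shown. The 247 bases before the 5′ end of Mcrip1, also on the 3′ side, were searched as well and held none of these motifs.

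The neighbourhood was densely accessible. It held 133 regions per Mb, against 79.5 over chromosome 11 up to its last region. Promoters, taken as regions within 3 kb of a 5′ end, made up 72 of the 267 regions (27.0%), against 17.1% of all regions. Another 139 regions lay in gene bodies and 56 outside genes. A peak was called in all 6 libraries at 155 regions (58.1%), close to the 57.1% of all regions, and in a single library at 39. Regions called in all 6 had a median merged width of 1260 bp, and those called in a single library 307 bp. Of the 72 promoters, 61 were called in all 6 libraries (84.7%), against 64 of 139 gene body regions (46.0%) and 30 of 56 regions outside genes (53.6%). Over all regions these shares were near the same, at 81.9%, 50.9% and 53.5%.

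The number of open regions in the neighbourhood overlapped between the genotypes. Regions called numbered 196, 212 and 225 in S7KO replicates 1, 2 and 4 and 199, 173 and 220 in WT replicates 1, 2 and 4. WT replicate 2 was the lowest of the 6, and the groups overlapped. S7KO averaged 211 ± 14.5 regions and WT 197 ± 23.5 (SD over 3 libraries, two-sided exact permutation test, p = 0.5). S7KO libraries covered 194 ± 9.54 kb and WT libraries 178 ± 25.9 kb (exact permutation p = 0.6). The neighbourhood took 0.169 ± 0.00244% of a library's peaks in S7KO and 0.168 ± 0.00248% in WT (exact permutation p = 0.7). None of the 6 measures taken per library passed the test, with an adjusted p of 1 for each by the Benjamini-Hochberg procedure over the exact permutation p, and 3 libraries against 3 cannot give an exact permutation p below 0.1.

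**Figure D1:**
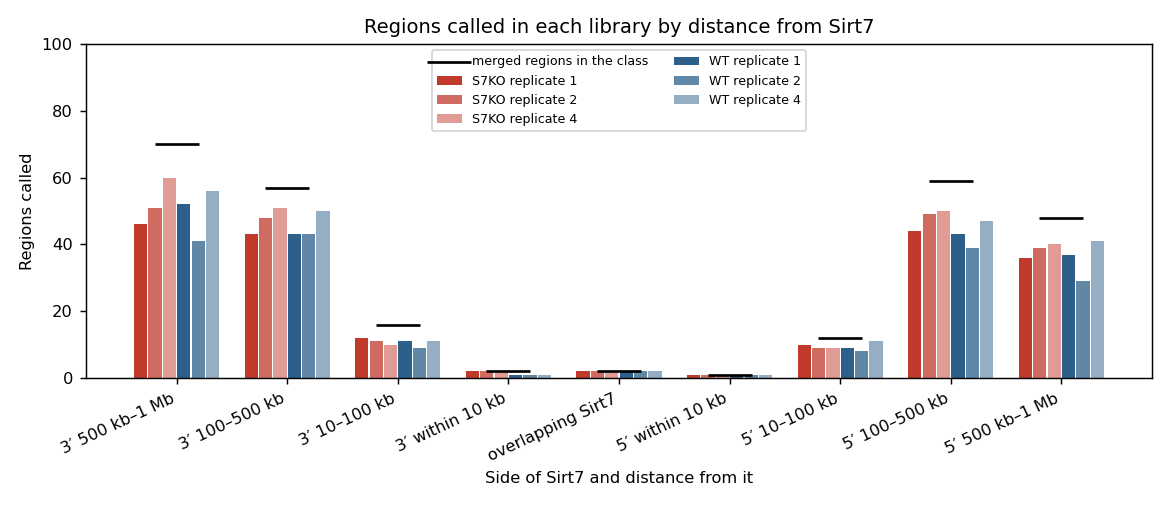
Regions called in each library (bars, S7KO in red and WT in blue) in classes of distance from Sirt7 on its 3′ and 5′ sides, with the number of merged regions in the class as a black line. WT replicate 2 was lowest or level with the lowest in every class.

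The remaining measures were as close. The median peak width was 751, 746 and 717 bp in S7KO and 741, 647 and 724 bp in WT, where WT replicate 2 again stood lowest (exact permutation p = 0.4). Peaks were ranked within their own list by −log10 q, as a percentage in which 0 is the strongest peak and 100 the weakest. The median rank of neighbourhood peaks was 42.1 ± 3.07% in S7KO and 42.6 ± 3.42% in WT (exact permutation p = 1). A peak lay within 3 kb of the 5′ end of 60, 61 and 62 protein-coding genes in S7KO and of 60, 61 and 61 in WT (exact permutation p = 1). This count took only genes whose 5′ end lay within 1 Mb of Sirt7, which left out Rptor and B3gntl1.

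Peak edges were also held closely. At 146 of the 155 regions called in all 6 libraries each library had a single peak. Across the 6 libraries the lower edge of such a region moved over a median range of 136 bp and the upper edge over 136 bp, against 152 bp for each edge over all regions. Covered width was larger on average in S7KO at 108 of the 155 regions (69.7%), and over all 90689 regions called in all 6 libraries it was larger in S7KO at 67.3%, so the neighbourhood did not stand apart in that respect. WT replicate 2, the shallowest library, also had the lowest median peak width, and its part in the width difference was not tested. Of the 25 regions called in 5 libraries, 21 lacked only WT replicate 2.

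Genotype-specific regions, which had a peak in each library of 1 genotype and no peak in the other genotype, numbered 2 for S7KO (0.749% of the 267 regions) and 0 for WT. Over all regions the background was 0.416% for S7KO and 0.0743% for WT. Without WT replicate 2 there were 2 for each genotype, with a background of 0.589% for S7KO and 0.505% for WT, and with equal numbers of peaks per list the background was 0.231% and 0.199%. Both S7KO-specific regions lay on the 3′ side within 100 kb of Sirt7. The first, at chr11:120519495-120520215, lay 98.2 kb from Sirt7 and outside genes. It ranked at 35.1%, 29.2% and 24.5% in the S7KO libraries, and no WT library had a peak within 2788 bp of it. The second, at chr11:120612657-120613000, lay 5.37 kb from Sirt7 inside the body of Pcyt2. It ranked at 86.5%, 60.3% and 39.1%, so that it was a weak peak in S7KO replicate 1, and the nearest WT peak was 3104 bp away. With only peaks at a −log10 q of at least 3 kept, it was called in 2 of the 3 S7KO libraries, whereas the more distant region stayed called in 3 of 3.

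The targeted gene itself carried a peak at each end in all 6 libraries and none between them. No library had a peak in the 5661 bases from 120618559 to 120624219, which is most of the 6644 bp gene. At the Sirt7 promoter the peak ranked at 17.8%, 8.07% and 7.75% in S7KO and 12.4%, 12.5% and 5.62% in WT. The groups overlapped, with S7KO replicate 1 the weakest of the 6. The upper edge reached 1331, 1292 and 520 bases beyond the 5′ end of Sirt7 in S7KO and 1334, 1112 and 1090 bases in WT, so that S7KO replicate 4 alone ended short. At the other end, a peak of 1397 to 1482 bp covered the 5′ end of Pcyt2 and the last bases of Sirt7. It ranked at 16.7%, 14.2% and 16.1% in S7KO and 8.44%, 12.7% and 7.82% in WT. Every S7KO library ranked it lower than every WT library (mean 15.7 ± 1.32% against 9.65 ± 2.64%, SD, n = 3 each; exact permutation p = 0.1, the smallest this design allows).

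The adjoining promoters overlapped between the genotypes. The shared promoter of Alyref, an adaptor of mRNA export, and Anapc11, a subunit of the anaphase-promoting complex, 19.3 kb away on the 3′ side, ranked at 3.85% to 6.02% in S7KO and 5.20% to 6.44% in WT. The promoter of Npb, which encodes a neuropeptide, 8.82 kb away, ranked at 38.1% to 44.8% in S7KO and 36.0% to 39.1% in WT. On the 5′ side the promoter of Mafg ranked at 4.63% to 6.06% in S7KO and 4.14% to 5.93% in WT, and that of Pycr1, an enzyme of proline synthesis, at 1.72% to 2.46% and 2.02% to 2.96%. The ranges crossed at all 4 promoters.

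**Figure D2:**
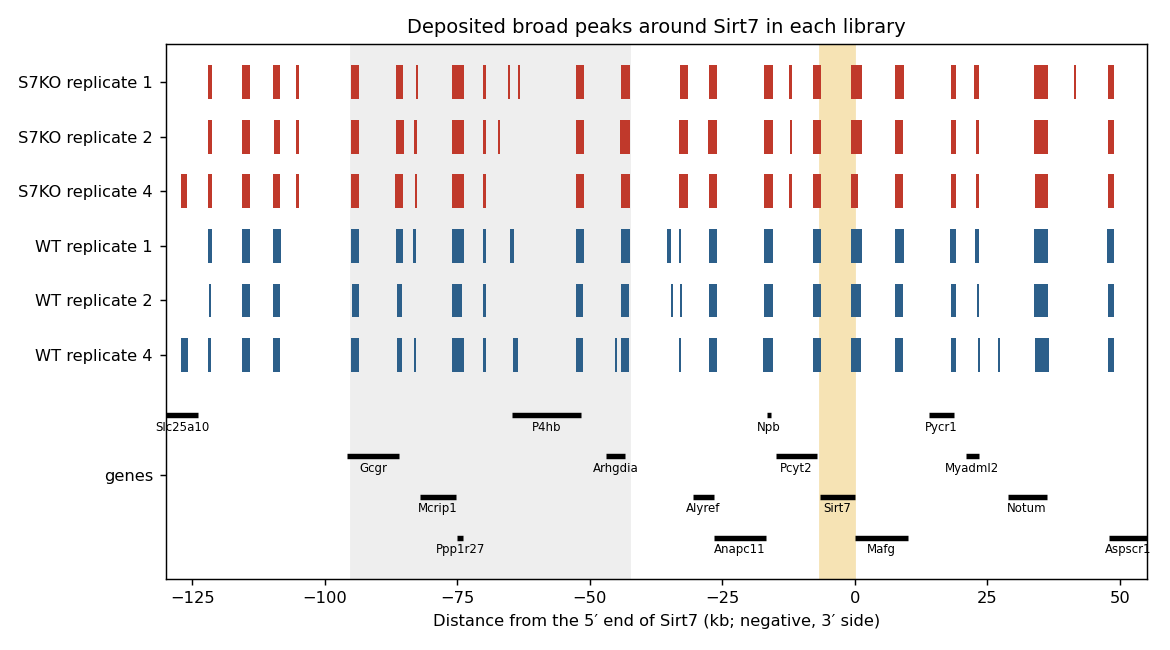
Peaks of each library (bars, S7KO in red and WT in blue) by distance from the 5′ end of Sirt7 in kb, with protein-coding genes in black below. Sirt7 is shaded in yellow and the 52.7 kb between the Gcgr and Arhgdia promoters in grey, and the S7KO-specific peaks show as columns with 3 red bars and no blue bar.

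Between 10 and 100 kb from Sirt7, regions set apart between the genotypes by width or rank were found on the 3′ side. The difference between the sides was not tested. The 3′ side held 16 regions, 8 of them called in all 6 libraries, and 4 of these 8 were wider and 3 ranked better in every S7KO library than in every WT library. The 5′ side held 12 regions, 8 of them called in all 6, and none of those 8 was set apart in either direction. The median rank difference, S7KO minus WT, was −9.95 percentage points on the 3′ side and −0.25 on the 5′ side, and the median width difference was 150 bp and 4.17 bp. Over the whole neighbourhood such counts were near the background: 11 of 155 regions were wider in every S7KO library (7.10%, against 6.86% of all regions called in all 6) and 2 in every WT library (1.29% against 1.56%). Ranked better in every S7KO library were 12 of 155 (7.74% against 5.98%), and in every WT library 4 (2.58% against 1.35%). Without WT replicate 2, 14 of 176 regions were wider in every S7KO library (background 8.49%) and 11 in every WT library (8.70%). Ranks without it gave 20 regions for S7KO (background 8.25%) and 7 for WT (6.14%). Fewer libraries separate more easily and the set of regions changed, so the part of WT replicate 2 was not tested.

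The promoter of P4hb, which encodes protein disulfide isomerase, an enzyme of protein folding in the endoplasmic reticulum, lay 44.4 kb from Sirt7 and was among the strongest peaks of every list. It ranked at 0.0175%, 0.0188% and 0.0075% in S7KO and 0.737%, 0.460% and 0.330% in WT. Every S7KO library thus placed it nearer the top than any WT library did. Its −log10 q, the value from which the rank is taken, was 195, 207 and 277 in S7KO and 103, 78.9 and 164 in WT. The means were 227 ± 43.9 and 116 ± 43.9 (SD, n = 3 each). These values did not overlap either, but they are no measure apart from the ranks, and q also depends on depth. The fold enrichment that the peak caller gave, the ratio of fragment pileup to local background, was 5.03, 4.92 and 5.07 in S7KO and 4.71, 5.71 and 5.39 in WT, and here the groups overlapped.

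Promoters on either side of P4hb followed the same order. The promoter of Gcgr, the glucagon receptor, 86.8 kb from Sirt7, ranked at 9.65%, 11.9% and 12.2% in S7KO and 18.7%, 22.1% and 24.5% in WT. It was also wider in every S7KO library, at 1586, 1586 and 1663 bp against 1476, 1316 and 1448 bp. The promoter of Arhgdia, 35.8 kb away, ranked at 8.79%, 9.31% and 6.003% in S7KO and 18.8%, 21.7% and 13.1% in WT. The region over Mcrip1 and Ppp1r27, a corepressor-binding protein and a subunit of protein phosphatase 1, was wider in every S7KO library (2242 to 2322 bp against 1917 to 2215 bp), while its ranks overlapped. A region outside genes 24.9 kb from Sirt7 covered 680, 1705 and 953 bp in S7KO and 203, 415 and 235 bp in WT. It was weak, and its ranks overlapped, at 74.1% to 80.3% in S7KO and 72.6% to 99.9% in WT. In S7KO replicates 1 and 4 it was made of 2 separate peaks. At a region in the 3′ part of Gcgr, 78.5 kb away, the widths were 1343 to 1428 bp in S7KO and 986 to 1213 bp in WT. This region was weak as well, at ranks of 69.5% to 87.2% in S7KO and 85.1% to 97.6% in WT.

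Beyond 100 kb, regions with separated groups lay on both sides of the gene. The largest width difference was at a region in Cep131, a centrosomal protein gene, 544 kb away, which covered 1978, 2014 and 1429 bp in S7KO and 961, 332 and 1403 bp in WT. Its peaks ranked at 50.1% to 84.4% in S7KO and 73.4% to 90.5% in WT, and the libraries covered different stretches. S7KO replicates 2 and 4 had 2 peaks each there, and the peaks of WT replicates 1 and 2 did not overlap each other. The largest rank difference in favour of S7KO was at a weak region 420 kb away on the 5′ side (51.8%, 60.7% and 72.7% against 78.9%, 87.4% and 81.3%). In the opposite direction, the largest rank difference was at a region near the 5′ end of Bahcc1, 380 kb away on the 3′ side (81.2%, 91.3% and 84.5% in S7KO against 77.1%, 64.4% and 71.2% in WT). The promoter of Slc25a10, the mitochondrial dicarboxylate carrier, 125 kb away, was wider in every WT library, at 1670, 1747 and 1656 bp in S7KO and 1817, 1871 and 1791 bp in WT.

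**Figure D3:**
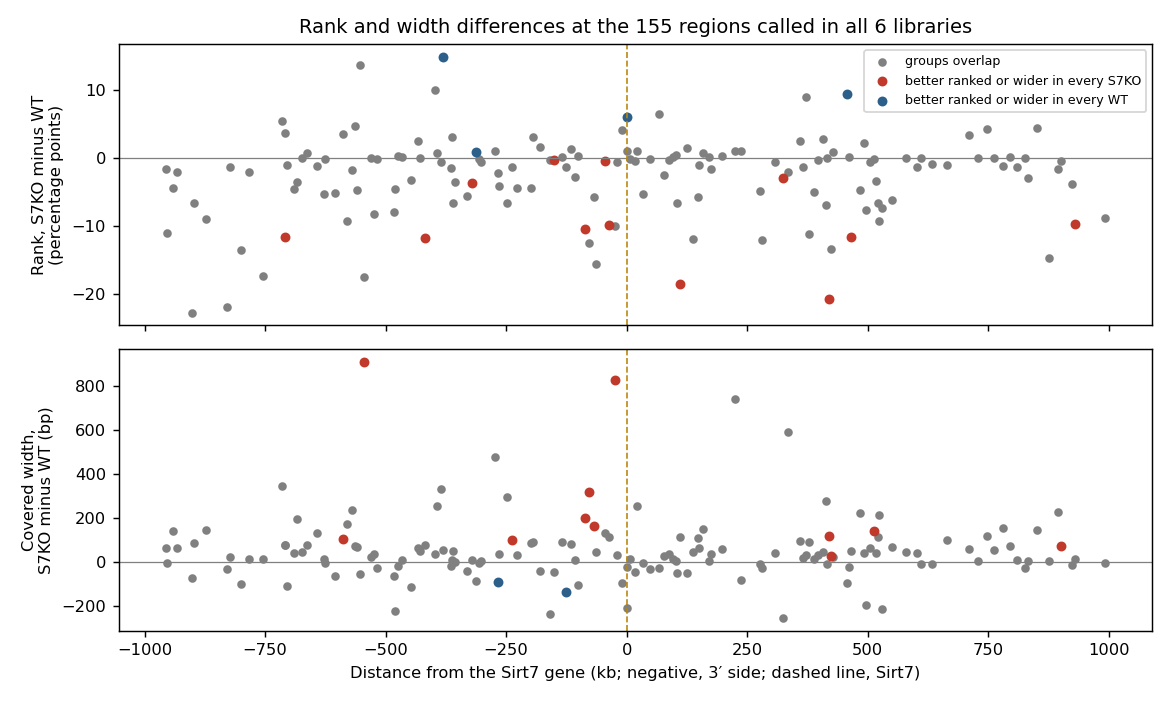
Mean rank difference in percentage points (top, negative where S7KO ranked nearer the top) and mean difference in covered width in bp (bottom), S7KO minus WT, at the 155 regions called in all 6 libraries, by distance from the Sirt7 gene in kb. Coloured points are regions whose libraries did not overlap between genotypes, and between 10 and 100 kb on the 3′ side they number 3 in the top panel and 4 in the bottom panel.

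A stronger −log10 q at the same fold enrichment means that both the pileup and the background around the peak were higher. Both were therefore recovered for each peak from its fold enrichment and −log10 p, since the peak caller takes the fold as (pileup + 1)/(background + 1) and p from the Poisson distribution around that background. The results are given as multiples of the genome-wide background of the same library, which takes out its depth. This measure was added after the peak values had been seen. The deposited values are means along a peak, so that it is an approximation, and the background is the coverage of the wider surroundings of a peak rather than of the peak alone.

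The recovered local background was 1.87 to 2.06 times higher in S7KO over a bounded run of regions on the 3′ side. At 6 of the 155 regions (3.87%) it was at least 1.5 times higher in S7KO and higher in every S7KO library than in every WT library, against 0.00772% of all 90689 regions called in all 6 libraries. The whole set held 7 such regions, and the other lay on chromosome 1. Leaving out each library in turn gave 6 to 11 such regions over the genome, the most without WT replicate 2. The 6 regions followed each other without a gap among the regions called in all 6 libraries, from 120529892 to 120582566, a span of 52.7 kb. The nearest of them lay 35.8 kb from Sirt7 and the farthest 86.8 kb, each measured to the region's nearer edge. No other region of the genome called in all 6 libraries had a ratio as high as the lowest of these 6, and the next highest ratio was 1.66.

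At the P4hb promoter the local background was 23.0, 23.5 and 25.2 times the library's own in S7KO and 13.8, 11.5 and 13.2 times in WT. At the Gcgr promoter it was 4.18, 4.28 and 3.80 against 2.51, 2.07 and 1.83, and at the Arhgdia promoter 8.76, 8.42 and 9.88 against 5.25, 3.94 and 4.90. Over Mcrip1 and Ppp1r27 it was 8.44, 9.50 and 10.7 against 5.08, 4.22 and 5.45. At each of these promoters the S7KO libraries lay close to each other and well above all WT libraries. The 2 remaining regions were not promoters. In the 3′ part of Gcgr the values were 2.76, 2.81 and 2.57 in S7KO and 1.42, 1.26 and 1.26 in WT. This region gave the highest of the ratios, 2.06, from weak peaks that ranked at 69.5% to 97.6% over the libraries. Outside genes, 62.9 kb from Sirt7, the S7KO libraries averaged 4.73 ± 0.088 and the WT libraries 2.37 ± 0.0257 (SD over 3), again without overlap.

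The recovered pileup was higher too. It is solved jointly with the background from the same fold and p, so it is no second measure. At the 6 regions it was 1.69 to 1.81 times higher in S7KO, and it passed 1.5 times with no overlap at these 6 of the 155 regions, against 0.0198% of all regions. At P4hb the 3 S7KO libraries averaged 121 ± 6.95 times the library background and the 3 WT libraries 68.2 ± 3.35 times. The fold enrichment did not rise: its mean was lower in S7KO at all 6 regions, in 0 of the 6 was it higher in every S7KO library, and in 1 of the 6 it was lower in every S7KO library. Fragment coverage rises both with more accessible chromatin and with more copies of the DNA, and for these 6 regions the lists cannot tell them apart. DNA copy number was not tested.

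The run had edges. At its far end, a region 102 kb from Sirt7 had a smaller ratio of 1.28, and the region after it, 107 kb away, a ratio of 0.935, with 2.37, 2.12 and 2.05 in S7KO against 2.80, 2.06 and 2.18 in WT. At the near end, the weak region 24.9 kb away had a ratio of 1.42 and the Alyref and Anapc11 promoter, 19.3 kb away, a ratio of 0.969. Farther out on the 3′ side, the log2 ratios of the 70 regions from 107 kb outward ran from −0.21 to 0.17, and those of the 73 regions on the 5′ side from −0.13 to 0.22. None of these regions reached 1.5 times in either direction. The S7KO-specific region 98.2 kb from Sirt7 lay between the run and the region 102 kb away, and its local background was 4.41, 4.23 and 4.84 times the library's own in the S7KO libraries. The one in Pcyt2 had values of 2.91, 2.68 and 2.81, and WT has no peak there to compare with either of them.

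**Figure D4:**
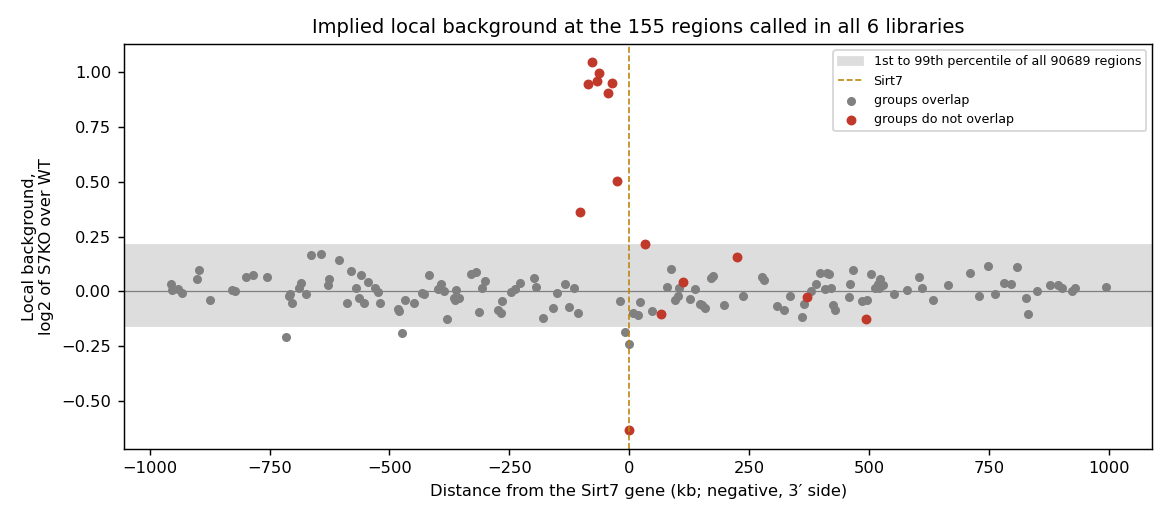
Log2 ratio of S7KO to WT in the recovered local background at the 155 regions called in all 6 libraries, by distance from the Sirt7 gene in kb. The grey band holds the 1st to 99th percentile of all 90689 regions, −0.16 to 0.21, and red points mark regions whose libraries did not overlap between genotypes. The 6 regions near 1 and the single region at −0.63 lie farthest outside the band.

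At the 3′ end of Sirt7 the local background went the other way. Around the peak over the 5′ end of Pcyt2 and the last bases of Sirt7 it was 2.68, 2.62 and 2.77 times the library's own in S7KO and 4.34, 3.94 and 4.27 times in WT. Every S7KO library lay well below every WT library, and WT was 1.55 times higher than S7KO. It was the only one of the 155 regions (0.645%) that was at least 1.5 times lower in S7KO without overlap, and the only one of all 90689 regions (0.0011%). Its log2 ratio of −0.63 was the lowest of all regions called in all 6 libraries. The pileup, solved from the same values and so no second measure, was 1.58 times higher in WT. It was at least 1.5 times lower in S7KO without overlap at this 1 region of the 155, against 0.0254% of all regions. The fold enrichment overlapped (4.72 to 4.93 in S7KO and 4.57 to 5.23 in WT). Here too the lists cannot tell accessibility from the number of DNA copies. Unlike the 6 regions, this one overlaps the targeted gene. The paper speaks of a Sirt7 deletion in these mice without giving its extent, and its part here was not tested.

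Around the Sirt7 promoter the local background was 4.50, 4.05 and 3.73 in S7KO and 5.48, 4.32 and 4.73 in WT. The mean was lower in S7KO, and the groups overlapped. At the Mafg promoter the values were 6.81, 6.86 and 7.76 in S7KO and 7.80, 6.60 and 8.63 in WT, with full overlap. The decrease was thus measured at the Pcyt2 end of the gene, faced the peak-free body of Sirt7 on one side and was not separated at the next regions on either side.

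**Figure D5:**
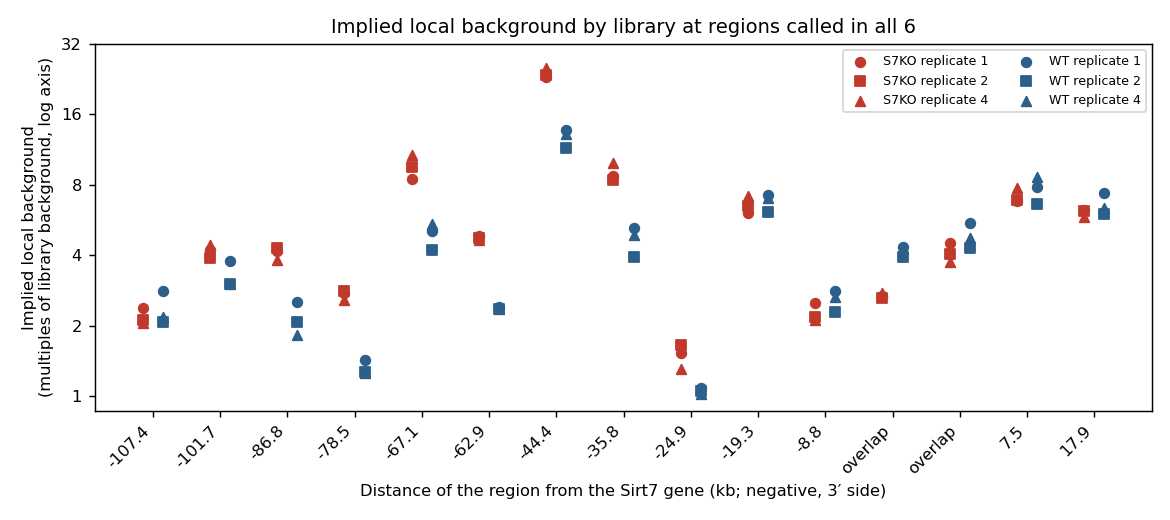
Recovered local background of each library, in multiples of its genome-wide background on a log axis, at regions called in all 6 libraries, ordered by distance from the Sirt7 gene in kb (negative, 3′ side), with S7KO in red and WT in blue. From 86.8 to 35.8 kb on the 3′ side every red point lies above every blue point, and at the first of the 2 regions overlapping Sirt7 every red point lies below.

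Separation alone was less particular to the neighbourhood. The local background was higher in every S7KO library than in every WT library, by any amount, at 11 of 155 regions (7.10%), against 3.97% of all regions. Of these 11, 8 lay between 24.9 and 102 kb on the 3′ side and 3 on the 5′ side, where the largest was at Notum, a secreted lipase that inactivates Wnt proteins (log2 ratio 0.22). It was lower in every S7KO library at 4 of 155 (2.58%), against 1.26% of all regions. Apart from the region at the 3′ end of Sirt7, these had log2 ratios of −0.13 to −0.03.

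The genes around Sirt7 were described by groups of known roles. All 18 protein-coding genes within 100 kb had a peak within 3 kb of a 5′ end in all 6 libraries, and for 17 a peak covered the 5′ end in all 6. The exception was Ppp1r27, where the peak of WT replicate 2 stopped short of the 5′ end. Within 1 Mb a peak covered the 5′ end in all 6 libraries for 57 of 67 protein-coding genes (85.1%), against 65.3% of 21440 protein-coding genes. These 67 were genes with any part within 1 Mb, and the 5′ ends of Rptor and B3gntl1 lay beyond it.

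The group listed as germ cell and genome defence genes held Tex19.1, Tex19.2, Faap100, Cep131 and Hgs, and was covered for 5 of 5 members. Tex19.1, which restrains retrotransposons in germ cells, and its paralogue Tex19.2 ranked at 17.8% to 41.3% and 33.4% to 46.0% over the 6 libraries, in the middle of the lists. Hgs, an endosomal sorting protein that shares a promoter with Arl16, ranked at 0.304% to 0.528% in S7KO and 0.530% to 0.972% in WT. Those ranges were separate, by a small margin. Genes of metabolism and mitochondria were covered for 10 of 10. Among them Fasn, the fatty acid synthase, ranked at 2.39% to 3.93% in S7KO and 2.07% to 4.38% in WT, and Mrpl12, a mitochondrial ribosomal protein, at 1.66% to 2.93% and 1.70% to 3.39%.

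Genes of signalling, trafficking and regulation were covered for 12 of 12. The promoter peak of Rptor, the mTORC1 scaffold, lay 1014 kb from Sirt7 and thus outside the 267 regions. Its ranks were 4.26% to 6.69% in S7KO and 5.09% to 6.96% in WT. Aspscr1, a tether of glucose transporter vesicles, ranked at 1.31% to 1.97% and 1.43% to 2.23%. Both overlapped between genotypes. Genes whose use is mainly in other tissues were covered in all 6 libraries for 5 of 12, and for 9 of 12 a peak lay within 3 kb in all 6. Pde6g, of rod photoreceptors, and Sectm1a had no peak within 3 kb in any library, although 3 regions called in all 6 overlapped Sectm1a farther from its 5′ end. Cd7, of lymphocytes, was covered in 2 libraries, S7KO replicate 4 and WT replicate 1, and Zfp750, of skin, in S7KO replicate 4 and WT replicate 4, so that neither followed genotype. Both had a peak within 3 kb in all 6 libraries, at best ranks of 10.8% to 23.0% for Cd7 and 6.01% to 14.1% for Zfp750.

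The best ranked regions called in all 6 libraries were all promoters. Apart from P4hb, they were those of Narf (0.0311% to 0.104%), Fn3krp (0.424% to 0.770%), Tepsin with Ndufaf8 (0.349% to 0.914%) and Arl16 with Hgs (0.304% to 0.972%). At Narf, Fn3krp and Tepsin the genotypes overlapped. The widest regions were in Cep131 (3203 bp merged), outside genes near Bahcc1 (3042 bp), at Slc16a3, a lactate transporter (3034 bp), at the 5′ end of Bahcc1 (2956 bp) and at Aatk, a kinase gene of the nervous system (2878 bp). Only the first of these was wider in every S7KO library, though its libraries covered different stretches. The widths of the other 4 overlapped between genotypes. Of those 4, the region near Bahcc1 outside genes and that at Slc16a3 ranked better in every S7KO library.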

How the data were processed

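Spermatogonia-enriched cells of Pnd 5 mice were profiled by ATAC-seq in 3 S7KO and 3 WT libraries, grouped by genotype and numbered as in their titles. A second label numbers some libraries differently in both genotypes. The authors trimmed reads (Trim Galore 0.6.6), aligned them to mm10 (Bowtie2 2.4.4.1), kept unique, non-duplicate reads, shifted ends for Tn5, filtered by fragment length and called broad peaks per library (MACS2 2.2.5, broad cutoff 0.1). The deposited lists hold a display score (not used), a fold enrichment (ratio of pileup to background) and the −log10 of p and q values. The methods keep fragments longer than nucleosome-free ones while the results speak of nucleosome-free profiles, so which fragments entered the calls is unclear. As q depends on depth, peaks were compared by rank within a list.

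Peaks on chromosomes 1 to 19, X and Y were merged and assigned to a library by an overlap of 1 bp (Python 3.11.15, pandas 2.3.3, numpy 2.4.6). Genes came from a RefSeq table of GRCm38.p6, and 5′ ends from RefSeq promoter entries or, without one, from the gene end by GENCODE strand. Of the 67 protein-coding genes, 55 had a promoter entry, and all 67 had a 5′ end. Library values were compared between genotypes with an exact permutation test over 20 assignments. Counts of separated regions are set beside the percentage over all regions. Background and pileup were solved jointly per peak, the genome-wide background being the 1st percentile over peaks narrower than 300 bp. Procedures were tested on simulated data.

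Regions, gene lists and groupings were chosen with earlier results of these data known. Text named regions within 20 kb of Sirt7, genotype-specific regions, the 5 widest and 5 best ranked called in all 6, the 5 largest separated differences in each direction, genes within 100 kb and members of the gene lists. The run of raised local background was chosen after its values were seen. The study calls the libraries biological replicates, and the labels do not tie them to animals, so p-values measure the spread between these samples. Libraries sharing a number did not all deviate together from their group means in whether a region was called, over all merged regions (correlations of 0.106, −0.0024 and 0.142), and the numbers were not taken as pairs. Peak sequences were not read, as the genome given was of another build.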

Additional observations from a re-analysis of the deposited data

How the results depend on the processing

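The exact permutation p of the 6 measures per library was 0.2 or more in every setting tried, in a design that cannot pass 0.05, and 57 of 69 alternative differences kept their direction, 10 turned and 2, both of promoters with a peak, were 0. Direction turned for the median rank difference with equal numbers of peaks per list (0.869 percentage points), a −log10 q of at least 3 (1.98) and a window of 500 kb (1.35), and for covered length with replicates 1 and 4 only (−0.0565 kb). A replicate block (paired sign-flip test, smallest p 0.25) left the differences as they were, such as 13.7 regions called and 15.6 kb covered, with exact p of 0.5 to 1, and changed no call.

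Leaving out each library in turn gave differences of 1.5 to 25 regions called, 1.41 to 26.8 kb covered, −0.000434 to 0.00209% of the list, 5.42 to 52.2 bp of median width, −2.41 to 0.953 points of median rank and −0.167 to 0.833 promoters. The same gave 2 to 5 S7KO-specific and 0 to 2 WT-specific regions, 14 to 32 regions wider in every S7KO and 4 to 11 in every WT library, and 20 to 36 ranked better in every S7KO and 5 to 8 in every WT library. The shares over all regions in these settings were 0.589% to 1.87% S7KO-specific and 0.154% to 0.505% WT-specific. For regions wider in every S7KO library the shares were 8.49% to 18.8%, and in every WT library 3.09% to 8.70%. For better ranks they were 8.25% to 18.6% and 2.81% to 6.14%. The lowest count wider in every S7KO library (14) and the highest in every WT library (11) were those without WT replicate 2. Fewer libraries separate more easily by construction. Counts that moved were, with equal numbers of peaks, 6 regions wider and 6 ranked better in every S7KO library. At a −log10 q of at least 3 they were 1 S7KO-specific and 1 WT-specific region, 6 wider in every S7KO and 2 ranked better in every WT library. Within 500 kb 7 were wider in every S7KO library. With replicates 1 and 4 only they were 5 S7KO-specific and 2 WT-specific regions, 23 wider in every S7KO and 22 in every WT library, and 30 ranked better in every S7KO and 21 in every WT library. The causes were not tested.

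The raised local background, chosen after seeing the data, was found at 6 to 7 regions when each library was left out, with a median ratio over the 6 regions of 1.85 to 2.03, at 7 with replicates 1 and 4 only and at 5 with peaks narrower than 2 kb. The lowered one stayed at 1 region in each of these settings. Over all regions the raised background was found at 6 to 11 regions when each library was left out, with 11 without WT replicate 2, and at 12 with replicates 1 and 4 only; the lowered one was found at 1 to 2. The lists hold no read depth, and what it limits was not tested.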
